A study of Mus musculus with 10 samples.

Results

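The 10 genes described here encode the proteins that move calcium in each heartbeat: the sarcoplasmic reticulum pump Atp2a2 and its inhibitors Pln and Sln, the release channel Ryr2 and the store protein Casq2, the L-type channel subunits Cacna1c and Cacnb2, the sodium-calcium exchanger Slc8a1, the kinase Camk2d and the junction protein Jph2. They were matched by gene symbol in the platform annotation, with no threshold on their values. All 10 were found, on 11 features, among the 16504 named genes of the arrays. Slc8a1 has 2 features and each of the others has 1. RNA of the lateral wall and of the septal wall of the mouse left ventricle was hybridised together on dual-colour arrays. The dyssynchronous group holds 4 hearts, numbered 1, 3, 4 and 5 in the labels, whose dyssynchrony the design text links to an implanted pacemaker. The control is 1 pool of RNA from synchronous mice, with septal and lateral RNA pooled apart. Each heart and the pool was hybridised on 2 arrays with the dyes exchanged, which makes 10 arrays of 10 RNA samples. Strain, age, sex, the pacing schedule and the number of mice in the pool are not given by the labels. The pool's channels are labelled PNL and PNS, and the last letter was read as lateral or septal as in the labels of the hearts.

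In a ventricular myocyte, depolarisation opens L-type calcium channels in the T-tubules, and the calcium that enters opens ryanodine receptors in the facing sarcoplasmic reticulum, which releases the much larger store that drives contraction. The muscle relaxes as the SERCA pump returns calcium to the store and the sodium-calcium exchanger expels the remainder. Phospholamban and sarcolipin restrain the pump, calsequestrin buffers the store, CaM kinase II phosphorylates phospholamban, the ryanodine receptor and the L-type channel, and junctophilin holds both membranes together. Reduced pump expression and altered calcium handling are well known features of failing hearts.

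Values are log2 of lateral wall over septal wall, so a positive value is higher in the lateral wall. Unless a single array is named, they are means of both dye orientations. A ratio of 1.5-fold is 0.585 on this scale. The deposited values were read as log10 of Cy5 over Cy3, which is likely but not stated by the labels, and with Cy3 over Cy5 every ratio here would change sign. The deposited sign did follow the dye: Myl7, the atrial myosin light chain, was on the septal side on all 8 arrays of the hearts once turned by the Cy5 label, at -5.18, -3.36, -3.54 and -6.10 in hearts 1, 3, 4 and 5, against -0.12 in the pool. Its mean as deposited was only -0.07 ± 0.13 (SD, n = 5). The values were therefore not turned to 1 wall before deposit, and the mean of both arrays as deposited is given below as the dye effect. The 2 arrays of a heart, as deposited, correlated across genes at 0.17 to 0.35 for the hearts and 0.30 for the pool. With the dyes exchanged, a wall ratio shared by both arrays makes this correlation negative, and a dye effect makes it positive. Turned to lateral over septal, these correlations change sign, so across genes the wall ratios of the 2 arrays opposed each other. The spread of the ratios on an array, as a median absolute deviation, was 0.22 to 0.47, and it was widest on the array of heart 4 with lateral RNA in Cy5. The files hold ratios and no channel intensities, so levels of genes cannot be compared and the labelled tissue cannot be checked by the presence of its markers. A ratio in wall tissue cannot tell fewer cells of a type from less RNA per cell.

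Calcium cycling genes had small mean differences in RNA between the lateral and septal walls of the dyssynchronous hearts. With 4 hearts, this does not show that the walls had equal RNA. The mean ratios of the 10 genes ran from -0.18 for Cacna1c to 0.20 for Ryr2, with 4 genes above 0 and 6 below. The median ratio of the 10 genes was -0.05 and the median size was 0.09, where all 16504 genes had 0.0026 and 0.09. None of the 10 passed limma on the 4 hearts at an adjusted p under 0.05, with adjusted p between 0.797 and 0.971, and 0% of all genes passed. At an unadjusted p under 0.05 there were 0 of the 10, against 5.66% of all genes. Of the 40 values of single hearts, 2 were beyond 1.5-fold, those of Sln and Camk2d in heart 4. This count depends on exact zeros, which were averaged in. Sln in heart 4 was at 1.29 on 1 array and an exact zero on the other. In heart 3 it was at -1.14 on 1 array and an exact zero on the other, with a mean of -0.57. None of the 10 was beyond 1.5-fold in one direction in all 4 hearts, a rule that 0.109% of all genes met. The number of hearts limits the precision of limma. In an exact permutation test, turning signs over 4 hearts gives a p (both sides) of 0.125 at the lowest, a floor that limma does not have.

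The intervals bound how large a wall difference could be. For 9 of the 10 genes, the 95% interval of the mean from limma lay inside 1.5-fold in both directions, as it did for 70.8% of all genes. The intervals of these 9 genes lay between 0.719-fold and 1.43-fold, the lower limit being that of Jph2 and the upper that of Camk2d. Sln was the exception, at 0.643-fold to 1.46-fold. The intervals rest on the spread between hearts, which limma moderates by the spread of all genes. For Pln the moderated standard error was 0.05, above its SD between hearts of 0.01. Any compression of ratios on the arrays is not covered. The count of 9 became 8 without moderation and 6 without heart 1 or without heart 5, and it was 5 when only arrays carrying lateral RNA in Cy5 were used.

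**Figure D1:**
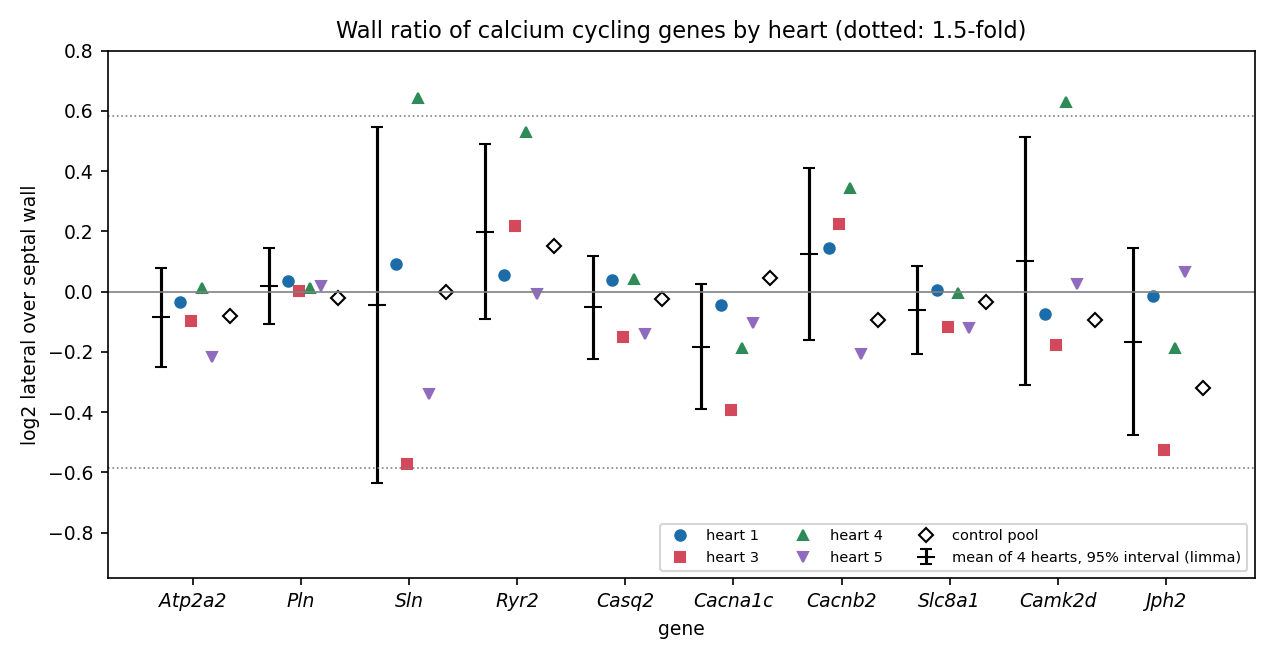
Wall ratio of each gene (log2 lateral over septal, vertical axis) in the 4 dyssynchronous hearts (filled symbols) and the control pool (open diamonds), with the mean of the hearts and its 95% interval from limma (black bars). Pln lies within 0.0030 to 0.03 in the hearts, while Sln spans -0.57 to 0.64.

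Atp2a2 encodes SERCA2, the pump that refills the sarcoplasmic reticulum. Its ratio was -0.04, -0.10, 0.01 and -0.22 in hearts 1, 3, 4 and 5, against -0.08 in the pool. The septal wall was thus slightly higher in 3 of 4 hearts, the hearts averaged -0.08 ± 0.10 (SD, n = 4), and the pool lay inside their range. The limma interval was -0.25 to 0.08 (adjusted p 0.808), so the average lateral level was bounded between 0.842-fold and 1.06-fold of the septal level. Without heart 5 the mean was -0.041.

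Pln, the phosphoprotein inhibitor of the pump, was the steadiest of the 10 genes between hearts. It stood at 0.03, 0.0030, 0.01 and 0.02 in hearts 1, 3, 4 and 5, against -0.02 in the pool. All 4 hearts were marginally above 0 and above the pool, but the mean of 0.02 ± 0.01 (SD, n = 4) is a ratio of 1.01-fold. Only 0.612% of all genes had an SD between hearts as low or lower. The exact sign-flip permutation test gave 0.125, its lowest possible p, and limma an adjusted p of 0.938. The sign of Pln rested on the averaging of both dyes: every array with lateral RNA in Cy5 had a positive ratio and every array with lateral RNA in Cy3 a negative one.

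The pump and its inhibitor were compared within hearts, a comparison chosen after the data were seen. The ratio of Atp2a2 minus that of Pln was -0.07, -0.10, -0.0029 and -0.24 in hearts 1, 3, 4 and 5, against -0.06 in the pool. It was below 0 in all hearts, with a mean of -0.10 ± 0.10 (SD, n = 4), and the exact sign-flip permutation test gave its lowest possible p of 0.125. With the lateral RNA in Cy3 alone the mean was 0.01, and with it in Cy5 alone it was -0.22.

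Sln, which encodes sarcolipin, a small inhibitor of the pump that is abundant in mouse atria and scarce in ventricles, varied most. It was at 0.09, -0.57, 0.64 and -0.34 in hearts 1, 3, 4 and 5, against 0.00 in the pool. The hearts divided evenly around 0, with a mean of -0.04 ± 0.53 (SD, n = 4, limma adjusted p 0.971), and 86.7% of all genes had an SD as low or lower. Exact zeros, whose meaning is not stated, stood on 5 of the 10 arrays, and both arrays of the pool were among them. The single arrays with a value ranged from -1.14 in heart 3 with lateral RNA in Cy5 to 1.29 in heart 4 with lateral RNA in Cy3. With zeros taken as no value, the mean was -0.0038. Markers of atrial muscle lay on the septal side in the same hearts, though none passed limma: the 6 listed genes other than Sln had medians of -1.85, -0.74, -0.67 and -2.98 in hearts 1, 3, 4 and 5, against -0.05 in the pool. Of these 6, 4 were on the septal side in all 4 hearts and none on the lateral side, where 7.63% of all genes were septal in all hearts. The list was chosen with earlier results of these data known, and leaving Sln out of it after the data were seen, so its share is no test. Myl7 was lowest in hearts 1 and 5 at -5.18 and -6.10, where Sln was at 0.09 and -0.34. The part of atrial tissue in the Sln ratios was not tested.

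Ryr2, the ryanodine receptor through which the store empties, had the highest mean of the 10 genes. Its ratio was 0.06, 0.22, 0.53 and -0.0080 in hearts 1, 3, 4 and 5, against 0.15 in the pool. Lateral RNA was higher in 3 of 4 hearts and in the pool, and the hearts averaged 0.20 ± 0.24 (SD, n = 4), or 1.15-fold. The interval of -0.09 to 0.49 includes 0 (limma adjusted p 0.797). Heart 4 set the size of this value, which was 0.09 without it. Its sign differed between the dye orientations: the 4 hearts averaged 0.58 ± 0.49 with lateral RNA in Cy5 and -0.18 ± 0.30 with lateral RNA in Cy3. The single arrays of heart 1 were at 0.73 and -0.62, those of heart 4 at 1.19 and -0.12.

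Casq2, cardiac calsequestrin, the calcium-binding protein of the store, kept close to 0. It was at 0.04, -0.15, 0.04 and -0.14 in hearts 1, 3, 4 and 5, against -0.02 in the pool. Hearts 3 and 5 were on the septal side and hearts 1 and 4 on the lateral side, with the pool between them. The mean was -0.05 ± 0.11 (SD, n = 4, limma adjusted p 0.856), and it was 0.08 when only arrays carrying lateral RNA in Cy3 were used.

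Cacna1c encodes the pore-forming subunit of the L-type channel, Cav1.2. Its ratio was -0.04, -0.39, -0.19 and -0.10 in hearts 1, 3, 4 and 5, against 0.04 in the pool. All 4 hearts were on the septal side and below the pool. The mean was -0.18 ± 0.15 (SD, n = 4), the lowest of the 10 genes, with an interval of -0.39 to 0.02 (limma adjusted p 0.797, exact sign-flip permutation p 0.125). Its sign differed between the dye orientations: the hearts averaged -0.53 ± 0.21 with lateral RNA in Cy5 and 0.16 ± 0.25 with lateral RNA in Cy3. Of the 8 arrays of the hearts, 5 were on the septal side and 3 on the lateral side, and without heart 3 the mean was -0.11.

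Cacnb2 encodes the beta subunit that brings the channel to the membrane and tunes its gating. It was at 0.14, 0.23, 0.34 and -0.21 in hearts 1, 3, 4 and 5, against -0.09 in the pool. Hearts 1, 3 and 4 were on the lateral side, and heart 5 and the pool on the septal side. The mean of 0.13 ± 0.24 (SD, n = 4) had a limma adjusted p of 0.816, and it was 0.055 without heart 4 and 0.24 without heart 5. Unlike the pore subunit, Cacnb2 averaged nearly the same in both orientations, 0.10 with lateral RNA in Cy5 and 0.15 with lateral RNA in Cy3. The difference between the subunits was not tested.

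Slc8a1, the exchanger NCX1 that expels calcium at the plasma membrane, was at 0.0056, -0.12, -0.0059 and -0.12 in hearts 1, 3, 4 and 5, against -0.04 in the pool. Hearts 3 and 5 were on the septal side, hearts 1 and 4 next to 0. The mean was -0.06 ± 0.07 (SD, n = 4, limma adjusted p 0.821). Its 2 features had means of -0.07 ± 0.06 and -0.05 ± 0.12 in the hearts. They differed in sign in the pool, at 0.04 and -0.11, and in heart 5 they were at -0.03 and -0.21.

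Camk2d encodes the main cardiac isoform of CaM kinase II. Its ratio was -0.07, -0.18, 0.63 and 0.02 in hearts 1, 3, 4 and 5, against -0.09 in the pool. Heart 4 stood above the rest, and within it the value came from 1 array, at 1.33 with lateral RNA in Cy5 and -0.08 with lateral RNA in Cy3. The mean was 0.10 ± 0.36 (SD, n = 4, limma adjusted p 0.882), and without heart 4 it was -0.07.

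Jph2, junctophilin, which ties the T-tubule to the sarcoplasmic reticulum, was at -0.01, -0.53, -0.19 and 0.06 in hearts 1, 3, 4 and 5, against -0.32 in the pool. The septal wall was higher in 3 of 4 hearts, most in heart 3, and the pool lay inside the range of the hearts with the lowest pool ratio of the 10 genes. The mean was -0.17 ± 0.26 (SD, n = 4, limma adjusted p 0.804), and it was -0.045 without heart 3. Both orientations were on the septal side, at -0.21 with lateral RNA in Cy5 and -0.12 with lateral RNA in Cy3.

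Across the 10 genes, 2 had the same sign in all 4 hearts, Pln on the lateral side and Cacna1c on the septal side, where 15.4% of all genes had the same sign in all hearts. None had the same sign on all 8 arrays of the hearts, against 1.33% of all genes. Heart 4 held the highest ratio for 6 of the 10 genes, and the lowest ratio lay in heart 3 for 6 and in heart 5 for 4. Over all genes heart 4 was highest for 27.9%, heart 3 lowest for 28.2% and heart 5 lowest for 22.9%.

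The second comparison set the dyssynchronous hearts against the pool of synchronous mice. With a single pooled control this comparison could detect little: 0 of the 10 passed limma, as did 0% of all genes, each of the 10 with an adjusted p of 1.00. At an unadjusted p under 0.05 there were 0 of the 10, against 4.74% of all genes. The largest differences, as hearts minus pool, were -0.23 for Cacna1c (interval -0.69 to 0.24), 0.22 for Cacnb2 (-0.42 to 0.86) and 0.20 for Camk2d (-0.72 to 1.11). Atp2a2 differed by -0.0027 (-0.37 to 0.36), and the smallest interval was that of Pln, -0.24 to 0.32 around 0.04. The pool lay outside the range of the 4 hearts for 2 of the 10 genes, Pln and Cacna1c, and for 35.8% of all genes. These intervals are wide because the pool is 1 sample, which is assumed to vary like 1 heart.

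The dye effect, the mean of both arrays as deposited over the 4 hearts and the pool, exceeded the mean wall ratio for 7 of the 10 genes, a share close to the 65.7% of all genes. Pln had the same deposited sign on all 10 arrays, which 5.05% of all genes had, and its dye effect was 0.22, 0.08, 0.14 and 0.21 in hearts 1, 3, 4 and 5, against 0.19 in the pool. Its mean was 0.17 ± 0.06 (SD, n = 5, limma adjusted p 0.112).

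Ryr2 had the largest dye effect, 0.395 ± 0.29 (SD, n = 5, limma adjusted p 0.137), positive in all hearts and the pool. Cacna1c was at -0.29 ± 0.20 (adjusted p 0.132) and Casq2 at -0.12 ± 0.05 (adjusted p 0.147), both negative in all hearts and the pool. Cacnb2, at 0.0029, had almost none. None of the 10 passed, against 0.2% of all genes, and no gene passed when any 1 heart was left out.

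**Figure D2:**
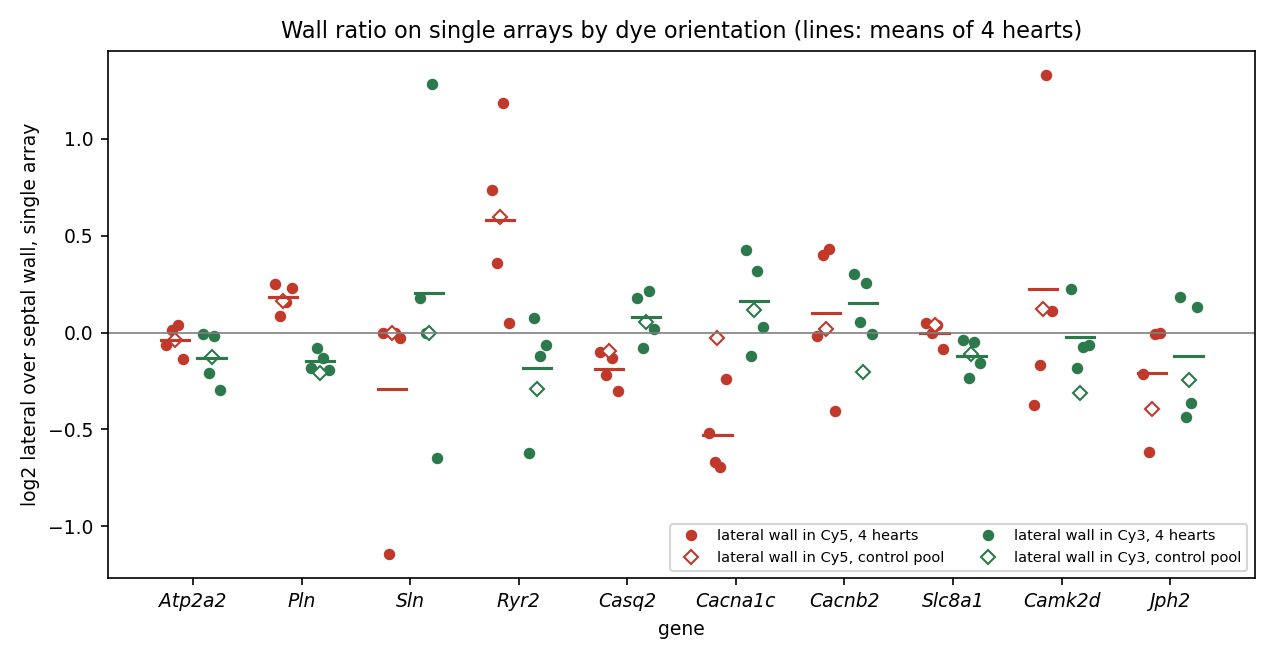
Log2 lateral over septal wall on single arrays (vertical axis) for each gene, split by whether lateral RNA was in Cy5 (red) or in Cy3 (green), with filled points for the 4 hearts, lines for their means and open diamonds for the pool. Means of the hearts lie on opposite sides of 0 in the 2 orientations for Pln, Ryr2, Cacna1c, Casq2, Sln and Camk2d. Cacna1c is at -0.53 and 0.16 and Slc8a1 at 0.00022 and -0.12, while Cacnb2 averages 0.10 and 0.15.

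**Figure D3:**
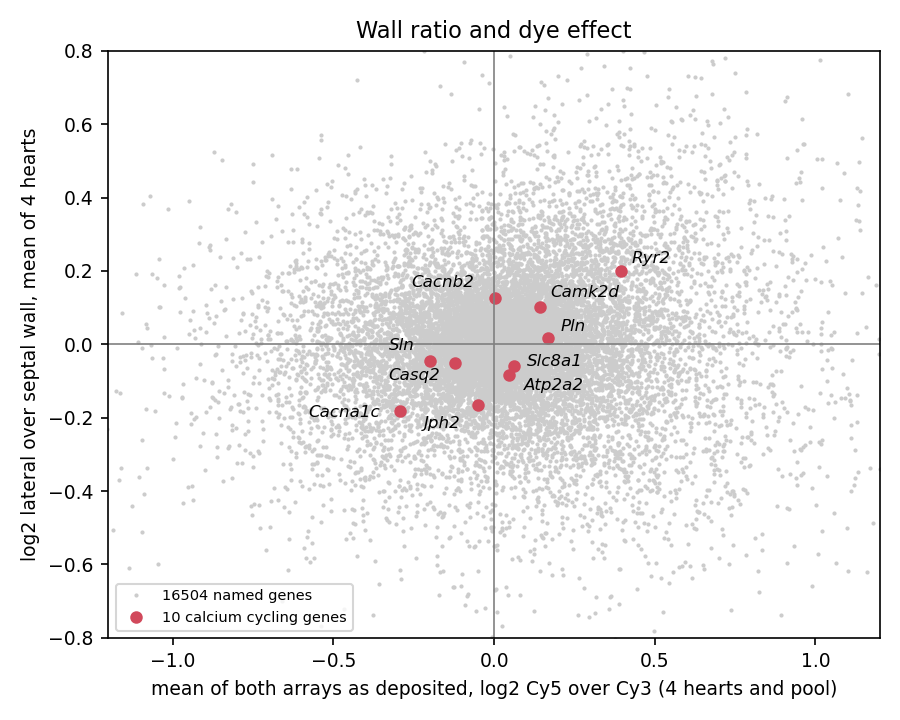
Mean wall ratio of the 4 hearts (vertical axis, log2) against the dye effect (horizontal axis, log2) for the 16504 named genes (grey) and the 10 calcium cycling genes (red). The 10 lie inside the cloud of all genes, Ryr2 farthest out at a wall ratio of 0.20 and a dye effect of 0.395; 107 genes fall outside the plotted range.

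Repeat arrays allow the spread between hearts to be set beside array error. Array error was taken as the SD, over the 4 hearts, of the mean of both arrays as deposited, in which the wall ratio cancels. The SD of the wall ratio exceeded it for 6 of the 10 genes, and for 45.6% of all genes. The ratio of the first to the second was highest for Casq2 at 2.34, with 0.11 between hearts and 0.05 for array error. Slc8a1 had a ratio of 1.81, Jph2 1.65 and Atp2a2 1.59. For Ryr2, 0.24 between hearts was below an array error of 0.33, and Camk2d (0.36 and 0.42) and Cacna1c (0.15 and 0.18) were likewise below. Pln, at 0.01 between hearts and 0.06 for array error, varied less between hearts than its arrays allow to be resolved. Sln is among the 6, at 0.53 between hearts and 0.45 for array error. Hearts 1, 3 and 4 each had an exact zero on 1 array for Sln, so spread between hearts and array error cannot be separated for it. All these ratios rest on 4 hearts and were not tested.

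**Figure D4:**
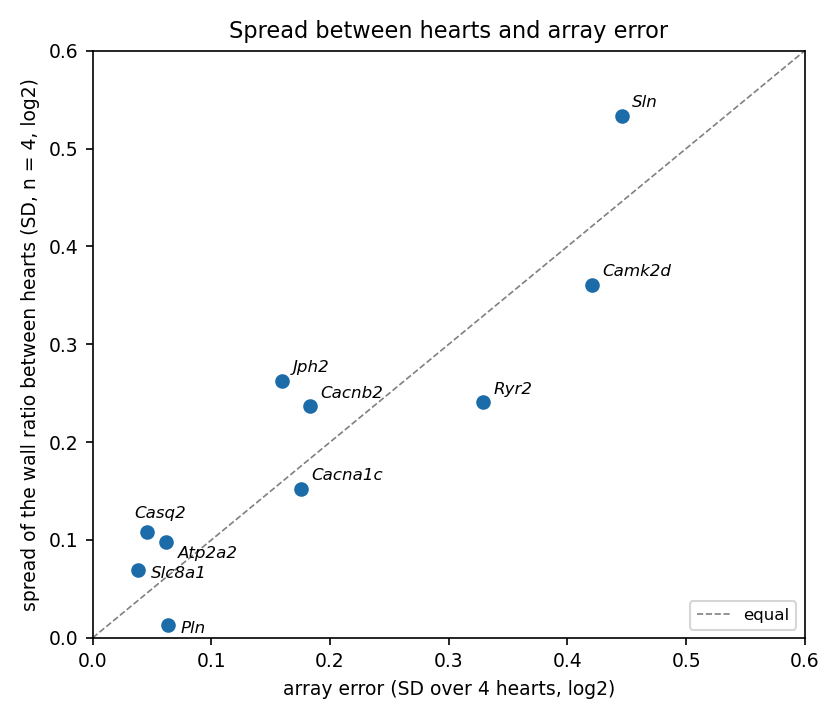
SD of the wall ratio between the 4 hearts (vertical axis, log2) against array error (horizontal axis, log2) for the 10 genes, with a dashed line where both are equal. Casq2, at 0.11 and 0.05, lies above the line as do Slc8a1, Atp2a2, Jph2, Cacnb2 and Sln, while Ryr2, at 0.24 and 0.33, lies below it with Camk2d, Cacna1c and Pln. The place of Sln cannot be read, since hearts 1, 3 and 4 each had an exact zero on 1 array.

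The genes differed in which hearts leaned to which wall. With each gene's own dye effect taken out, Casq2 and Slc8a1 followed each other most closely, with a Pearson r of 0.97 over the 10 arrays. Atp2a2 joined them, at 0.77 with Slc8a1 and 0.72 with Casq2, and it reached 0.68 with Cacnb2. All 3 were on the septal side in hearts 3 and 5 and nearer to 0, or above it, in hearts 1 and 4. Slc8a1 was averaged here over its features, which stood at -0.03 and -0.21 in heart 5 and at 0.04 and -0.11 in the pool. The features were not correlated apart, so the closeness to Casq2 holds for their mean only. Ryr2 and Cacna1c were the most opposed over the 10 arrays, at -0.56. Over the means of the 4 hearts and the pool, the trio kept its order at 0.99, 0.83 and 0.82, but it did not stand apart. Sln was at 0.90 with Casq2, 0.85 with Slc8a1 and 0.83 with Camk2d over those means. Ryr2 with Cacna1c was at -0.36, and Cacna1c with Cacnb2 was the most opposed at -0.57. Pln with Atp2a2 was at -0.29 over arrays and 0.03 over those means, so its sign is not settled. The points share hearts, arrays and hybridisation, so these correlations describe the arrays and carry no test.

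**Figure D5:**
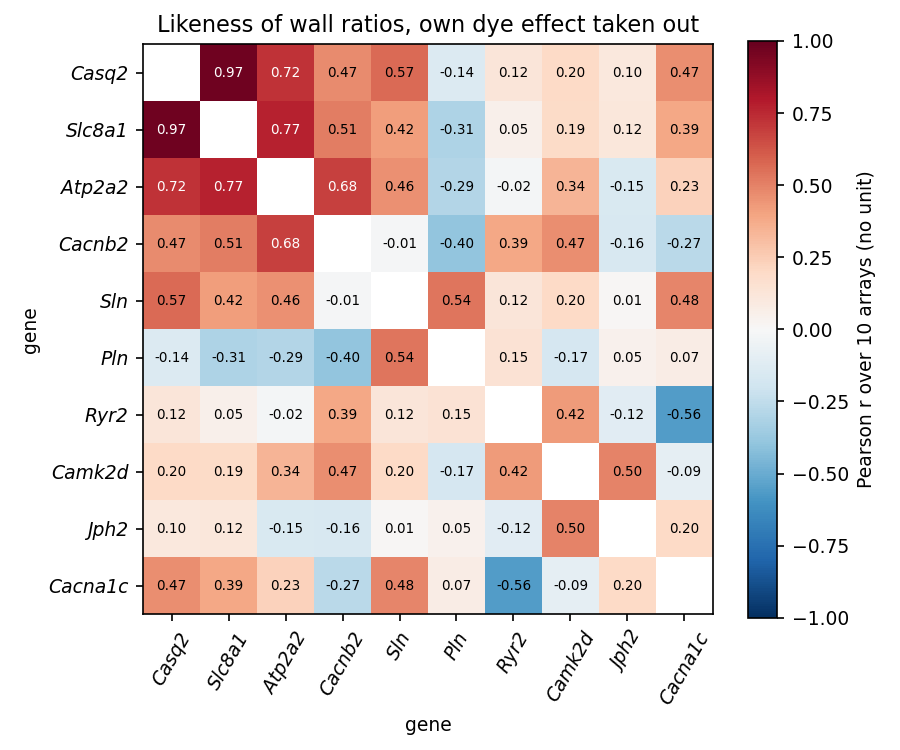
Pearson r between the wall ratios of each pair of the 10 genes over the 10 arrays, each gene's own dye effect taken out, on a scale from blue (negative) to red (positive), with genes on both axes. Slc8a1 is the mean of its features. Casq2, Slc8a1 and Atp2a2 form the reddest block, from 0.72 to 0.97, and Ryr2 with Cacna1c is the bluest cell at -0.56, though at -0.36 over the means of the 4 hearts and the pool.

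Among all genes, those most like each of the 10 by the same measure were found. Slc8a1 was the nearest gene to Casq2, and Casq2 to Slc8a1, followed by Ndrg2 for Casq2 (0.94) and Mroh8 for Slc8a1 (0.96). Jph1, the junctophilin best known from skeletal muscle, was nearest to Ryr2 at 0.96, with Rnf41 next at 0.96. Nearest to Atp2a2 were Epdr1 and Trp53bp2 (both 0.97), to Pln Tctn3 (0.98) and 0610040J01Rik (0.97), and to Sln 1700016A09Rik (0.94) and Tsga13 (0.93). Tctn3 had exact zeros on 4 of the 10 arrays and Tsga13 on 8, so these correlations rest on few arrays. Cacna1c was nearest to Ms4a4b (0.95) and Tnfrsf8 (0.93), and Cacnb2 to Garem1 (0.97) and Txlnb (0.94). For Camk2d the nearest were Prima1 (0.97) and Itgb6 (0.965), and for Jph2 Tmem129 (0.96) and Grik3 (0.94). Between 5 genes, for Cacna1c, and 49 genes, for Camk2d, exceeded an r of 0.9, out of 16504 searched over only 10 arrays.

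Jph1 had ratios of -0.07, 0.20, 0.61 and -0.13 in hearts 1, 3, 4 and 5, against 0.24 in the pool. As for Ryr2, heart 4 was highest, heart 3 next and heart 5 lowest. Jph1 was picked for its likeness to Ryr2 on these same arrays, so the shared order adds nothing to that correlation.

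Beyond the 10, a wider list of 77 calcium handling genes was examined, of which 69 were measured. It covered other pumps, release channels and their partners, voltage-gated channel subunits and their inhibitors, junction proteins, plasma membrane and mitochondrial transport, store-operated entry, and kinases, phosphatases and anchors. None passed limma in either comparison. Their median ratio was -0.0075 and their median size 0.07, and 17.4% had the same sign in all 4 hearts, 6 lateral and 6 septal, against 15.4% of all genes. At an unadjusted p under 0.05 there were 4, Casq1, Cacna1s, Orai2 and Orai3, the last named after its values were seen. These 4 are 5.8% of the list, close to the 5.66% of all genes, so the values that follow describe single genes at the background rate.

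Cacna1s, the pore subunit of the L-type channel of skeletal muscle, was at 0.12, 0.21, 0.19 and 0.15 in hearts 1, 3, 4 and 5, against 0.15 in the pool. It was higher laterally on all 8 arrays of the hearts, with a mean of 0.17 ± 0.04 (SD, n = 4, limma adjusted p 0.797), and the pool lay inside the range of the hearts.

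Orai2, a pore protein of store-operated calcium entry, was at 0.26, 1.29, 0.57 and 0.76, against 0.23 in the pool. All hearts were on the lateral side and above the pool (0.72 ± 0.43, SD, n = 4, limma adjusted p 0.797), with 7 of 8 arrays positive and none negative. Orai3, of the same family, was at -0.24 ± 0.14 in the hearts, against 0.21 in the pool.

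Casq1, the skeletal muscle calsequestrin, was at -0.95, 0.05, -1.04 and -0.73, against -0.70 in the pool. It was higher in the septal wall in 3 of 4 hearts and in the pool (-0.67 ± 0.49, SD, n = 4, limma adjusted p 0.797), with exact zeros on 2 of the 10 arrays. Markers of skeletal muscle, 7 genes, had medians of 0.28, 0.03, -0.07 and -1.14 in hearts 1, 3, 4 and 5, against 0.09 in the pool, and none of the 7 had the same sign in all hearts. Their part in the Casq1 ratio was not tested.

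In the remaining groups the genes with the lowest p had adjusted p between 0.797 and 0.930. Mtm1, the myotubularin lipid phosphatase, was at 0.16 ± 0.21 over the hearts, against 0.24 in the pool. Prkaca, the catalytic subunit of protein kinase A, was at 0.29 ± 0.28 over the hearts, against -0.28 in the pool, a difference of 0.57 with an adjusted p of 1.00 in limma. Atp2b3, a plasma membrane calcium pump, was at 0.396 ± 0.58 over the hearts, against 0.58 in the pool, with a dye effect of 0.90. Atp2a3, the pump SERCA3, was at -0.03 ± 0.11 over the hearts, against -0.11 in the pool.

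Markers of other cells were read beside these values. Ventricular myocyte markers, 9 genes, had a median of -0.07 over the hearts, with medians of -0.01, -0.13, -0.07 and -0.03 in hearts 1, 3, 4 and 5, against -0.16 in the pool. Of them 2 were septal in all hearts and none lateral, where 7.63% of all genes were septal in all hearts. The other medians over the hearts were 0.28 for 5 smooth muscle, 0.24 for 3 macrophage, -0.08 for 6 endothelial and -0.16 for 7 fibroblast genes, and none of these genes passed limma. In the pool the medians were 0.32 for smooth muscle, 0.09 for macrophage, 0.03 for endothelial and -0.06 for fibroblast genes. Smooth muscle genes were lateral in all hearts for 4 of 5, where 7.8% of all genes were. The marker lists were chosen with earlier results of these data known, so their shares are no test. Whether cell make-up contributes to the calcium cycling ratios was not tested.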

How the data were processed

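Total RNA of lateral and septal wall segments was hybridised in pairs on 10 dual-colour Agilent arrays, read with Agilent Feature Extraction 7.5 per the submitters' processing notes. The authors deposited 1 ratio per feature and array, with base and direction unstated. It was read here as log10 of Cy5 over Cy3, the convention of that software. These deposited log10 values were multiplied by 3.322 to give log2 and turned by the Cy5 label to lateral over septal. A value of -2 was taken as no value. No further normalization was applied.

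Of 22393 features, 18218 carried 1 gene symbol in the platform annotation, 16 several and 4159 none. Features of a gene were averaged, giving 16504 genes, and then the 2 arrays of a heart, so a heart is 1 replicate. Hearts and pool shared 1 fit in limma 3.58.1 in R 4.3.3 (statmod 1.5.0), with Benjamini-Hochberg adjustment over all genes and a threshold of 0.05. The mean of the hearts was tested against 0, then against the pool, and the unturned mean over the hearts and the pool against 0 as the dye effect. The code was tested on simulated data. P-values for the wall rest on the spread between these 4 hearts, which limma moderates by the spread of all genes. The number of hearts limits their precision. Those for the dye effect rest on the hearts and the pool, and those against the pool assume that it varies like 1 heart.

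The 10 genes and all lists were chosen with earlier results of these data known. Besides the 10, the text names from each group of other calcium genes the one with the lowest p, and for each of the 10 genes the 2 nearest by Pearson r. Orai3, Jph1 values and Myl7 were named after their values were seen. Alternatives varied centring, scaling, zeros, probes, dye orientation, moderation, hearts and fold limits.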

Additional observations from a re-analysis of the deposited data

Results flagged for a closer look

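In 27 sets of 4 hearts, 1 heart stood apart from the other 3 by Dixon's criterion, which chance gives for about 1 in 20 sets, or 1.35 of the 27. It was heart 3 for Slc8a1, whose mean of both arrays as deposited was 0.12, where hearts 1, 4 and 5 were at 0.05, 0.04 and 0.04 and the pool at 0.08. The wall ratio of Slc8a1 in heart 3, -0.12, was close to that of heart 5, -0.12.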

How the results depend on the processing

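No calcium cycling gene passed limma in any alternative run, for the wall ratio, the difference from the pool or the dye effect. With single arrays and the heart as a random block (within-heart correlation -0.28, or -0.05 with a dye term), 23 genes passed for the wall, or 20 with a dye term, where 0 had passed, and 3 in either form for hearts minus pool. Without moderation 1 passed for hearts minus pool and 315 for the dye effect, where 33 had passed; the dye count was 0 to 0 when each heart was left out. Genes beyond 1.5-fold in all hearts numbered 18, but 11 with arrays at a common spread, 151 with lateral RNA in Cy5 alone, 134 with it in Cy3 alone, 31 to 41 when each heart was left out, 71 at a limit midway between 1 and 1.5 and 4 at a limit of 2. Intervals inside 1.5-fold numbered 11688, but 7312 with lateral RNA in Cy5 alone and 6578 at the lower limit. Wall ratios changed sign mainly with the dye, while hearts minus pool also changed sign with scaling, probe choice and the hearts used. With lateral RNA in Cy3 alone the wall ratio was -0.15 for Pln, 0.20 for Sln, -0.18 for Ryr2, 0.083 for Casq2, 0.16 for Cacna1c, -0.024 for Camk2d and 0.015 for Atp2a2 minus Pln, and hearts minus pool was 0.20 for Sln, 0.030 for Casq2 and 0.050 for Cacna1c. With it in Cy5 alone the wall ratio of Slc8a1 was 0.00022, Atp2a2 minus Pln was -0.22 and hearts minus pool of Ryr2 was -0.016. At a common spread, hearts minus pool was 0.023 for Atp2a2 and 0.0054 for Slc8a1 (0.064 with 1 probe), and the dye effect of Cacnb2 was -0.0078. Leaving out each heart gave wall ratios of -0.27 to 0.13 for Sln and -0.075 to 0.19 for Camk2d, hearts minus pool of -0.034 to 0.041 for Atp2a2, -0.27 to 0.13 for Sln, -0.064 to 0.12 for Ryr2 and -0.061 to 0.0035 for Casq2, and a dye effect of -0.040 to 0.053 for Cacnb2. The cause of these turns was not tested. Signal over background could not be examined, since the files hold ratios alone.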
